A study of Mus musculus with 12 samples.

Results

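The conjugating enzymes of drug and hormone metabolism described here are the 19 UDP-glucuronosyltransferases (Ugt1a, Ugt2a and Ugt2b genes), 21 sulfotransferases (Sult1 to Sult6 genes) and 21 glutathione transferases of the alpha, kappa, mu, omega, pi and theta classes. They are the 61 rows, of 57180 in the expression table, whose mouse gene symbol begins with 1 of these family names, after 7 pseudogene rows were left out; the rule uses names only, and it was chosen with earlier results of these data known. The liver groups were 3 bulk libraries of C57 mice that received CCl4 (carbon tetrachloride, which hepatocytes turn into a damaging radical) and 3 of C57 mice that received vehicle. The dorsal skin groups were CX3CR1+ cells after CCl4 (3 libraries) and after vehicle (3 libraries), and all 6 skin libraries were of the Cx3cr1-creER:Ai9 strain, in which a drug-inducible Cre under Cx3cr1 control switches on a red reporter. The submitters describe 3 biological replicates per group and speak of hepatocytes, while the sample labels say liver. Neither dose, time, sex nor age is given for any group in the labels.

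Conjugation is the second stage of detoxification, in which a water-soluble group is joined to a drug, hormone, bile pigment or reactive intermediate. Glucuronosyltransferases sit in the endoplasmic reticulum and use UDP-glucuronic acid; sulfotransferases of the cytosol use the activated sulfate PAPS; glutathione transferases join glutathione to electrophiles. All are abundant in hepatocytes, and skin cells hold a narrower set.

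The unit is TPM, a read share corrected for transcript length and scaled to the same total in each library, so that sequencing depth is unknown and levels can be compared between genes. Mitochondrially encoded genes and their nuclear copies took 82.1, 80.2 and 68.1% of the TPM in the CCl4 livers, against 28.4, 25.9 and 25.7% in the vehicle livers. All other genes together therefore had a smaller share of the total in CCl4 livers, and the median gene tested changed by -0.59 in log2(TPM + 1) as deposited. With TPM rescaled after those genes were left out, called rescaled TPM here, the median gene changed by 0.90; with median-ratio scaling and quantile normalization it changed by -0.11 and -0.12. The 8 hepatocyte markers were all present in liver, and their summed level was 12106 to 29044 TPM in CCl4 livers and 60620 to 67562 TPM in vehicle livers. On rescaled TPM it was 67621 to 91073 in CCl4 livers and 84649 to 91206 in vehicle livers. In the skin libraries Cx3cr1 itself was listed at 5.28, 0 and 0.28 TPM in the CCl4 group and 3.91, 0.27 and 0.91 TPM in the vehicle group. Markers of Langerhans cells, keratinocytes, T cells, fibroblasts and mast cells were all present there, so a member's RNA cannot be assigned to 1 cell type. Both skin libraries numbered 1 had more genes above 0 than the other skin libraries (28357 and 28870, against 21328 to 23494).

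Several members have near-identical copies, and this bears on how far their values can be separated. Gsta1 and Gsta2 (both on chromosome 9) share 98.05% of their coding bases, with 13 differences, and Gstp1 and Gstp2 (adjacent on chromosome 19) share 98.1%, with 12 differences. The stretches below are shown because the members of each pair changed unequally in liver; they are coding bases 359 to 508 of Gsta1 and Gsta2 and coding bases 1 to 150 of Gstp1 and Gstp2, 5′ to 3′, from GENCODE M21 transcripts (GRCm38), with the 6 differing bases of each pair in capitals.
Gsta1: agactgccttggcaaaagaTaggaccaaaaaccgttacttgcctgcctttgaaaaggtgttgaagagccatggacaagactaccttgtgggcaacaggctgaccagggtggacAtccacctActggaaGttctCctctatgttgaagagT
Gsta2: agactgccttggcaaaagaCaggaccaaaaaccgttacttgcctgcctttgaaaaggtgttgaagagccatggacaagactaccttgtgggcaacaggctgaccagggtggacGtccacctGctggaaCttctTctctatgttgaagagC
Gstp1: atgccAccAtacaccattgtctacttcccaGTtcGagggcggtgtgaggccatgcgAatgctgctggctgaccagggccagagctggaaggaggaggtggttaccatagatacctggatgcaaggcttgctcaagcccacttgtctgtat
Gstp2: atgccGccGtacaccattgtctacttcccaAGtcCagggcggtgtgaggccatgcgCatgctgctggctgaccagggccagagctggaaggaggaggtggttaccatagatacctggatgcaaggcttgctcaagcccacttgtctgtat
The longest stretch without a difference was 196 bases in the Gsta pair and 300 bases in the Gstp pair. Of all 100-base words of the Gsta1 transcript, 81.8% also occur in another gene, most of them in Gm3776, and for Gsta2 the share was 35.0%. The share was 52.8% for Gstp1 and 63.5% for Gstp2. For the 9 Ugt1a members, which join their own first exon to common exons, it was 57.2% to 100%. Values of all these members are therefore uncertain as to which copy the reads came from.

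In liver, the 3 families together held 2771, 2245 and 7083 TPM in CCl4 livers, against 10916, 10440 and 11052 TPM in vehicle livers. Glutathione transferases made up 73.9, 69.0 and 77.8% of that sum in CCl4 livers and 66.7, 67.5 and 67.9% in vehicle livers. Glucuronosyltransferases made up 22.4, 28.2 and 19.5% in CCl4 livers and 25.5, 25.8 and 25.3% in vehicle livers. Sulfotransferases made up 3.66, 2.76 and 2.70% in CCl4 livers and 7.82, 6.63 and 6.80% in vehicle livers. The sulfotransferase share was below every vehicle library in all 3 CCl4 livers and the glutathione transferase share was above, while the glucuronosyltransferase shares overlapped. An exact permutation test of 3 libraries against 3 cannot give a p under 0.1, so these shares carry no call. In bulk liver, fewer hepatocytes and less RNA per hepatocyte cannot be told apart. On rescaled TPM the sums were 493 ± 156 in CCl4 livers and 1046 ± 132 in vehicle livers for sulfotransferases, 3670 ± 588 in CCl4 livers and 3762 ± 124 in vehicle livers for glucuronosyltransferases, and 12189 ± 4761 in CCl4 livers and 9927 ± 356 in vehicle livers for glutathione transferases (SD, n = 3 each).

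**Figure D1:**
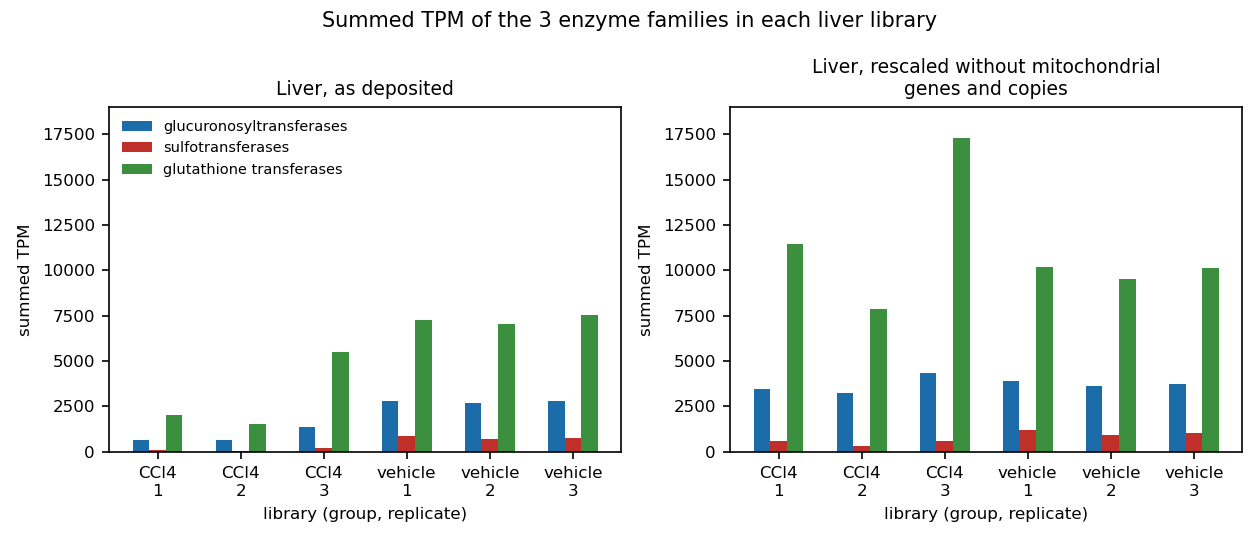
Summed TPM (y axis) of glucuronosyltransferases, sulfotransferases and glutathione transferases in each of the 3 CCl4 and 3 vehicle livers (x axis), as deposited on the left and rescaled without mitochondrial genes and copies on the right. As deposited, all 3 sums are lower in each CCl4 liver; after rescaling, only the sulfotransferase bars of the CCl4 livers all stay below those of the vehicle livers.

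Of the 61 members, 42 had 1 TPM or more in 3 or more of the 6 liver libraries and were tested (15 glucuronosyltransferases, 8 sulfotransferases, 19 glutathione transferases). The other 19 never exceeded 0.39 TPM in liver, and 9 of them were listed at 0 in every liver library. Among these low members were 13 of the 21 sulfotransferases, including 7 of the 9 Sult2 genes. The tests were limma's, two-sided, on log2(TPM + 1), with Benjamini-Hochberg adjustment over all genes and a call at an adjusted p under 0.05; each change is a CCl4 mean less a vehicle mean of those log2 values, a scale that shrinks the changes of low genes. As deposited, 31 of the 42 tested members were called lower and 4 higher, beside 51.1% of all 10385 genes called lower and 10.3% called higher. The median change of the tested members was -1.55, against -0.59 for all genes. By family, 12 of 15 glucuronosyltransferases were called lower and none higher (median -1.58), 7 of 8 sulfotransferases lower and 1 higher (median -1.74), and 12 of 19 glutathione transferases lower and 3 higher (median -1.35). Of these sulfotransferases, Sult1c2 and Sult2a7 reached 1 TPM only in vehicle livers, and Sult1e1 only in CCl4 livers. Their directions were set by the filter, so their calls add no support to the counts. Sult2a7 had 0.10, 0.10 and 0.39 TPM in CCl4 livers, against 2.91, 1.02 and 1.41 TPM in vehicle livers. On rescaled TPM, 8 members were called lower and 8 higher, beside 3.57% of 12582 genes called lower and 67.8% called higher, and the members' median was 0.04 against 0.90 for all genes. With median-ratio scaling, 25 of 41 were called lower and 5 higher, beside 26.0% and 18.4% of genes, and with quantile normalization 15 of 42 lower and 6 higher, beside 24.1% and 17.6%. The 3 CCl4 livers all lay below the 3 vehicle livers for 31 tested members and above for 4 as deposited, beside 58.8% and 11.4% of genes; on rescaled TPM it was 9 below and 8 above, beside 5.15% and 72.8%. The members' median lay below that of all genes on each of the 4 scalings, by 0.96 as deposited, 0.86 rescaled, 0.88 with median-ratio scaling and 0.38 with quantile normalization.

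**Figure D2:**
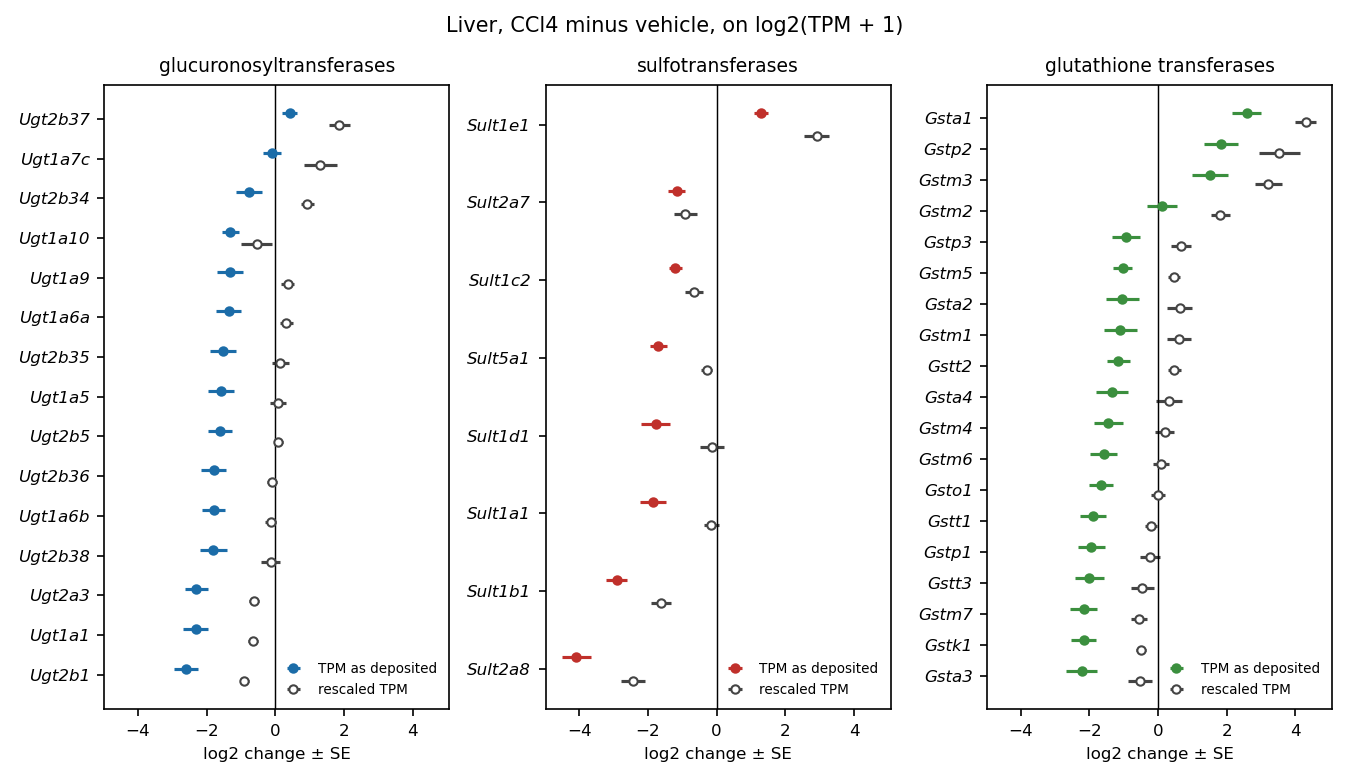
Change in log2(TPM + 1), CCl4 minus vehicle (x axis, with limma's SE), for the 42 tested members in liver, by family (panels) and ordered by the change as deposited; filled points are TPM as deposited, open points rescaled TPM. Gsta1, Gstp2, Gstm3, Gstm2, Ugt2b37 and Sult1e1 lie right of 0 on both scales and Sult2a8 lies farthest left on both. The direction of Sult1e1 was set by the filter.

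A change was taken as independent of the scaling when it was called in the same direction as deposited, rescaled, with median-ratio scaling and with quantile normalization. That held for 7 of the 41 members tested on all 4 scalings in the lower direction (4.18% of all 10157 such genes) and for 4 in the higher direction (9.96% of genes). The 7 lower members were Sult2a8, Sult1b1, Sult1c2, Ugt2b1, Ugt1a1, Ugt2a3 and Gstk1, and the 4 higher members were Gsta1, Gstm3, Gstp2 and Sult1e1. As deposited, Sult1c2 and Sult1e1 passed the filter only through the group in which they were high, so their calls add no support to these counts. In 1 fit over all 12 libraries, in which skin and liver share the estimate of the spread, Gsta1, Gstm3 and Gstp2 were not called (adjusted p = 0.25, 0.0715 and 0.106), and Gstm3 and Gstp2 were not called without the filter (0.128 and 0.071).

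Sult2a8, which sulfates bile acids in mouse liver, was the most reduced member. It had 29.6, 12.6 and 47.2 TPM in CCl4 livers, against 523, 421 and 450 TPM in vehicle livers. Every CCl4 liver was far below every vehicle liver, and the change was -4.09 ± 0.42 (SE, adjusted p = 5.5e-05), or -2.43 on rescaled TPM. Sult2a8 was the leading sulfotransferase of vehicle livers, with 60.7 ± 0.750% of the family's TPM, and held 24.7 ± 4.41% in CCl4 livers (SD, n = 3 each), a share that is the same whatever constant a library is multiplied by. Sult1a1, the phenol sulfotransferase, held 52.1 ± 5.93% in CCl4 livers and 26.3 ± 0.808% in vehicle livers. Sult1a1 itself had 47.0, 36.0 and 98.9 TPM in CCl4 livers, against 221, 178 and 204 TPM in vehicle livers. Its change of -1.84 ± 0.38 (adjusted p = 0.00195) shrank to -0.15 on rescaled TPM (adjusted p = 0.537), so its call rests on the scaling.

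Sult1b1, a thyroid hormone sulfotransferase, had 2.03, 1.20 and 4.64 TPM in CCl4 livers, against 23.0, 27.0 and 23.1 TPM in vehicle livers. The groups were far apart (-2.92 ± 0.32, adjusted p = 7.0e-05; -1.62 rescaled). Sult1c2, a low member, had 0.16, 0.36 and 0.57 TPM in CCl4 livers, against 2.51, 1.67 and 2.22 TPM in vehicle livers (-1.20 ± 0.19, adjusted p = 0.000522; -0.66 rescaled). As deposited, Sult1c2 passed the filter on low values only through the vehicle libraries, in which it was high, so its call and its place among the 7 lower members support nothing further. Sult1d1, which sulfates catecholamines, had 16.9, 7.92 and 33.0 TPM in CCl4 livers, against 67.9, 52.2 and 58.4 TPM in vehicle livers. Sult1d1 was called lower as deposited (-1.78 ± 0.42, adjusted p = 0.00419) and not on rescaled TPM (-0.14, adjusted p = 0.736). Sult5a1 had 2.64, 2.20 and 4.54 TPM in CCl4 livers, against 12.7, 11.4 and 12.1 TPM in vehicle livers, and likewise lost its call on rescaling (-1.70 ± 0.24, adjusted p = 0.000303; -0.29 rescaled, adjusted p = 0.155).

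Sult1e1, the estrogen sulfotransferase, went the other way from the other tested members of its family. It had 2.47, 1.25 and 1.45 TPM in CCl4 livers, against 0.04, 0.05 and 0.18 TPM in vehicle livers. The levels were low, and no vehicle liver reached the lowest CCl4 liver (1.30 ± 0.20, adjusted p = 0.00043; 2.92 rescaled). Sult1e1 passed the filter on low values only through the CCl4 libraries, in which it was high, so its call likewise supports nothing further. Beside it on chromosome 5, in the RefSeq order of GRCm38.p6, stands Sult1d1, followed by Sult1b1, and the ratio of Sult1e1 to Sult1d1 within a library was 0.146, 0.158 and 0.0440 in CCl4 livers, against 0.000589, 0.000957 and 0.00308 in vehicle livers.

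Among the glucuronosyltransferases, the 3 members lower on every scaling were Ugt2b1, Ugt1a1 and Ugt2a3. Ugt2b1 had 49.6, 52.9 and 107 TPM in CCl4 livers, against 392, 413 and 399 TPM in vehicle livers (-2.60 ± 0.35, adjusted p = 0.000223; -0.90 rescaled). Ugt1a1, the enzyme that glucuronidates bilirubin, had 42.2, 39.7 and 87.9 TPM in CCl4 livers, against 269, 261 and 274 TPM in vehicle livers (-2.32 ± 0.35, adjusted p = 0.000414; -0.63 rescaled). Ugt2a3 had 24.7, 25.6 and 53.8 TPM in CCl4 livers, against 169, 161 and 160 TPM in vehicle livers (-2.29 ± 0.35, adjusted p = 0.000394; -0.62 rescaled). In all 3 genes no CCl4 liver came near a vehicle liver on TPM as deposited. As a share of all glucuronosyltransferase TPM, Ugt2b1 was 8.02 ± 0.304% in CCl4 livers and 14.6 ± 0.664% in vehicle livers, and Ugt1a1 was 6.47 ± 0.283% in CCl4 livers and 9.73 ± 0.0794% in vehicle livers (SD, n = 3 each).

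Shares of the family differed among the other abundant glucuronosyltransferases. Ugt2b5 had 162, 165 and 348 TPM in CCl4 livers, against 661, 617 and 658 TPM in vehicle livers, a change of -1.61 ± 0.35 (adjusted p = 0.00264) that turned to 0.09 on rescaled TPM (adjusted p = 0.561). Its share of the family was 25.8 ± 0.560% in CCl4 livers and 23.4 ± 0.468% in vehicle livers (SD, n = 3 each). Ugt2b36 had 109, 129 and 256 TPM in CCl4 livers, against 540, 512 and 551 TPM in vehicle livers (-1.80 ± 0.36, adjusted p = 0.00163; -0.09 rescaled, adjusted p = 0.572), with 18.8 ± 1.44% of the family in CCl4 livers and 19.4 ± 0.382% in vehicle livers (SD, n = 3 each). Ugt2b34 had 86.8, 68.9 and 175 TPM in CCl4 livers, against 190, 159 and 172 TPM in vehicle livers. Ugt2b34 was not called as deposited (-0.76 ± 0.37, adjusted p = 0.0911) or with median-ratio scaling (-0.15), and was called higher on rescaled TPM (0.94, adjusted p = 0.00414) and with quantile normalization (0.60, adjusted p = 0.0431), so its direction depends on the scaling. Ugt2b34 held 12.5 ± 1.56% of the family in CCl4 livers and 6.29 ± 0.464% in vehicle livers (SD, n = 3 each). The ratio of Ugt2b34 to its chromosomal neighbour Ugt2b1 was 1.75, 1.30 and 1.64 in CCl4 livers, against 0.483, 0.386 and 0.430 in vehicle livers, so these genes did not change in proportion. Low members called higher on rescaled TPM and not as deposited were Ugt2b37 (2.26, 1.25 and 2.23 TPM in CCl4 livers, against 1.70, 0.92 and 0.87 TPM in vehicle livers) and Ugt1a7c (2.64, 2.61 and 1.23 TPM in CCl4 livers, against 2.58, 3.21 and 1.40 TPM in vehicle livers). The Ugt2b37 and Ugt1a7c groups overlap as deposited.

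The highest glutathione transferases of vehicle livers were Gstp1, Gsta3 and Gstm1. Gstp1, the main pi-class enzyme of mouse liver, had 753, 400 and 1322 TPM in CCl4 livers, against 2768, 2784 and 2949 TPM in vehicle livers (-1.94 ± 0.39, adjusted p = 0.00169; -0.24 rescaled, adjusted p = 0.477). Gsta3, the alpha-class enzyme known in mice for conjugating the aflatoxin epoxide, had 356, 192 and 840 TPM in CCl4 livers, against 2024, 1546 and 1882 TPM in vehicle livers (-2.22 ± 0.46, adjusted p = 0.0019; -0.52 rescaled, adjusted p = 0.217). Gstm1 had 528, 442 and 1976 TPM in CCl4 livers, against 1533, 1760 and 1683 TPM in vehicle livers. The Gstm1 groups overlapped, since the third CCl4 liver exceeded all vehicle livers, and its change of -1.10 ± 0.48 (adjusted p = 0.0655) became 0.61 on rescaled TPM (adjusted p = 0.15) and 0.55 with quantile normalization (adjusted p = 0.166).

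Gstk1, the kappa-class enzyme of mitochondria and peroxisomes, was the only glutathione transferase called lower on all 4 scalings. It had 19.6, 20.6 and 45.5 TPM in CCl4 livers, against 119, 127 and 122 TPM in vehicle livers (-2.17 ± 0.35, adjusted p = 0.00057; -0.50 rescaled, adjusted p = 0.0188). On rescaled TPM its call was lost in 4 of the 6 fits that left out 1 library, namely without CCl4 replicate 1 or without any of the 3 vehicle replicates, and the same 4 fits ended the rescaled call of Sult1c2. Gstm7 had 9.36, 8.15 and 25.7 TPM in CCl4 livers, against 61.4, 58.5 and 61.1 TPM in vehicle livers (-2.17 ± 0.38, adjusted p = 0.000877; -0.55 rescaled, adjusted p = 0.0694). Gstt1, a theta-class enzyme that acts on small halogenated alkanes, had 36.9, 50.8 and 98.0 TPM in CCl4 livers, against 215, 207 and 223 TPM in vehicle livers (-1.90 ± 0.37, adjusted p = 0.00142; -0.21 rescaled, adjusted p = 0.283).

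Gsta1 was the member with the largest rise. It had 53.6, 36.4 and 140 TPM in CCl4 livers, against 8.58, 12.2 and 9.68 TPM in vehicle livers. All CCl4 livers were above all vehicle livers even on TPM as deposited (2.58 ± 0.43, adjusted p = 0.000634; 4.30 rescaled). Its near copy Gm3776 had 50.9, 28.1 and 148 TPM in CCl4 livers, against 6.52, 9.04 and 8.67 TPM in vehicle livers, so the summed level of both copies was also higher in every CCl4 liver. Gsta2 had 21.7, 15.0 and 74.1 TPM in CCl4 livers, against 64.2, 56.9 and 62.3 TPM in vehicle livers, and was not called on any scaling (-1.04 as deposited, 0.62 rescaled, -0.45 with median-ratio scaling and 0.02 with quantile normalization). The ratio of Gsta1 to Gsta2 was 2.48, 2.42 and 1.88 in CCl4 livers, against 0.134, 0.215 and 0.155 in vehicle livers, so the copy with the higher level was Gsta1 in CCl4 livers and Gsta2 in vehicle livers.

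Gstm3 stands in the mu-class cluster of chromosome 3 between Gstm6 and Gstm2, in the RefSeq order of GRCm38.p6. It had 114, 113 and 541 TPM in CCl4 livers, against 58.5, 72.6 and 70.0 TPM in vehicle livers. The third CCl4 liver was by far the highest, and without it the change of 1.50 ± 0.53 (adjusted p = 0.0273; 3.21 rescaled) was 0.76 (adjusted p = 0.00281). The ratio of Gstm3 to Gstm6 was 5.73, 6.37 and 10.3 in CCl4 livers, against 0.754, 0.917 and 0.797 in vehicle livers. The ratio of Gstm3 to Gstm1, the most abundant gene of the cluster, was 0.217, 0.255 and 0.274 in CCl4 livers, against 0.0382, 0.0412 and 0.0416 in vehicle livers. Gstm2, on the other side of Gstm3, had 37.2, 45.8 and 140 TPM in CCl4 livers, against 52.2, 63.0 and 56.8 TPM in vehicle livers; it was called higher on rescaled TPM (1.82) and with quantile normalization (1.30), and not called as deposited (0.12) or with median-ratio scaling (0.72).

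Gstp2, the copy of Gstp1, had 25.0, 142 and 50.5 TPM in CCl4 livers, against 18.1, 12.5 and 15.7 TPM in vehicle livers. The second CCl4 liver was the highest, and without it the change of 1.83 ± 0.50 (adjusted p = 0.00877; 3.53 rescaled) was 1.17 (adjusted p = 0.00936). That library also had the highest summed TPM of red blood cell markers (867, against 14.9 and 11.6 in the other CCl4 livers and 45.9 to 65.4 in vehicle livers) and of endothelial markers (343, against 168 and 112 in the other CCl4 livers and 18.1 to 22.3 in vehicle livers); their part in the result was not tested. The ratio of Gstp2 to Gstp1 was 0.0332, 0.356 and 0.0382 in CCl4 livers, against 0.00654, 0.00448 and 0.00534 in vehicle livers.

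**Figure D3:**
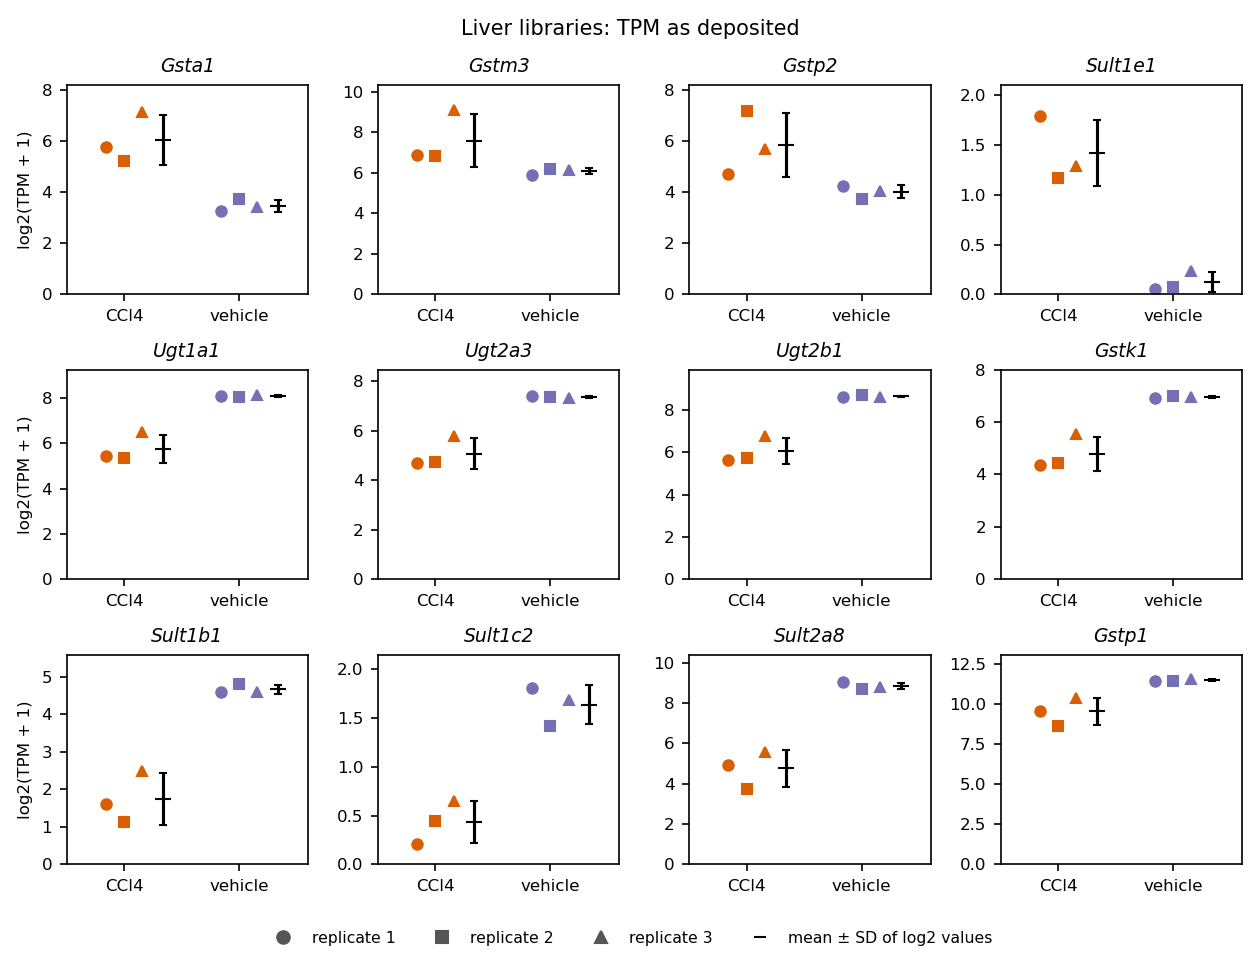
Level in log2(TPM + 1), as deposited (y axis), of 12 members in each liver library, CCl4 left and vehicle right in each panel; symbols mark the replicate number and bars the mean and SD of the log2 values. The CCl4 and vehicle points do not overlap in any panel; the top row lies higher in CCl4 livers, and the other panels lie lower.

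Markers of several other cell types were called higher in CCl4 livers as deposited, where 10.3% of all genes were. All 6 endothelial and all 7 Kupffer cell and macrophage markers were called higher. So were the 3 tested of 5 monocyte, the 5 tested of 6 stellate cell and the 2 tested of 5 cholangiocyte markers. A marker under 1 TPM in every vehicle liver was tested only if all 3 CCl4 livers reached 1 TPM, so its direction was set by the filter. Col1a1 was such a marker, with 2.47, 4.65 and 1.32 TPM in CCl4 livers, against 0, 0.03 and 0.03 TPM in vehicle livers. Summed stellate markers, which need no filter, were 79.2 to 166 TPM in CCl4 livers and 7.24 to 10.4 TPM in vehicle livers. The 8 hepatocyte markers were all called lower as deposited, and 5 of 8 on rescaled TPM. Of the 3 tested red blood cell markers none was called higher and 1, Alas2, was called lower (-2.68, adjusted p = 5.2e-05). The part of these cells in the members' changes was not tested.

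Genes standing side by side on a chromosome differed in their change. In the cluster on chromosome 5 that runs from Ugt2b34 to Sult1e1, the members called on rescaled TPM were Ugt2b34, Ugt2b37 and Sult1e1 (higher) and Ugt2b1, Ugt2a3 and Sult1b1 (lower). On rescaled TPM too, Sult1e1 passed the filter only through the CCl4 libraries, so its call adds no support here. In the Ugt1a cluster, whose members share their last exons, only Ugt1a1 was called lower on rescaled TPM and only Ugt1a7c higher, of 7 tested. On that scale 3.57% of all genes were called lower and 67.8% higher.

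**Figure D4:**
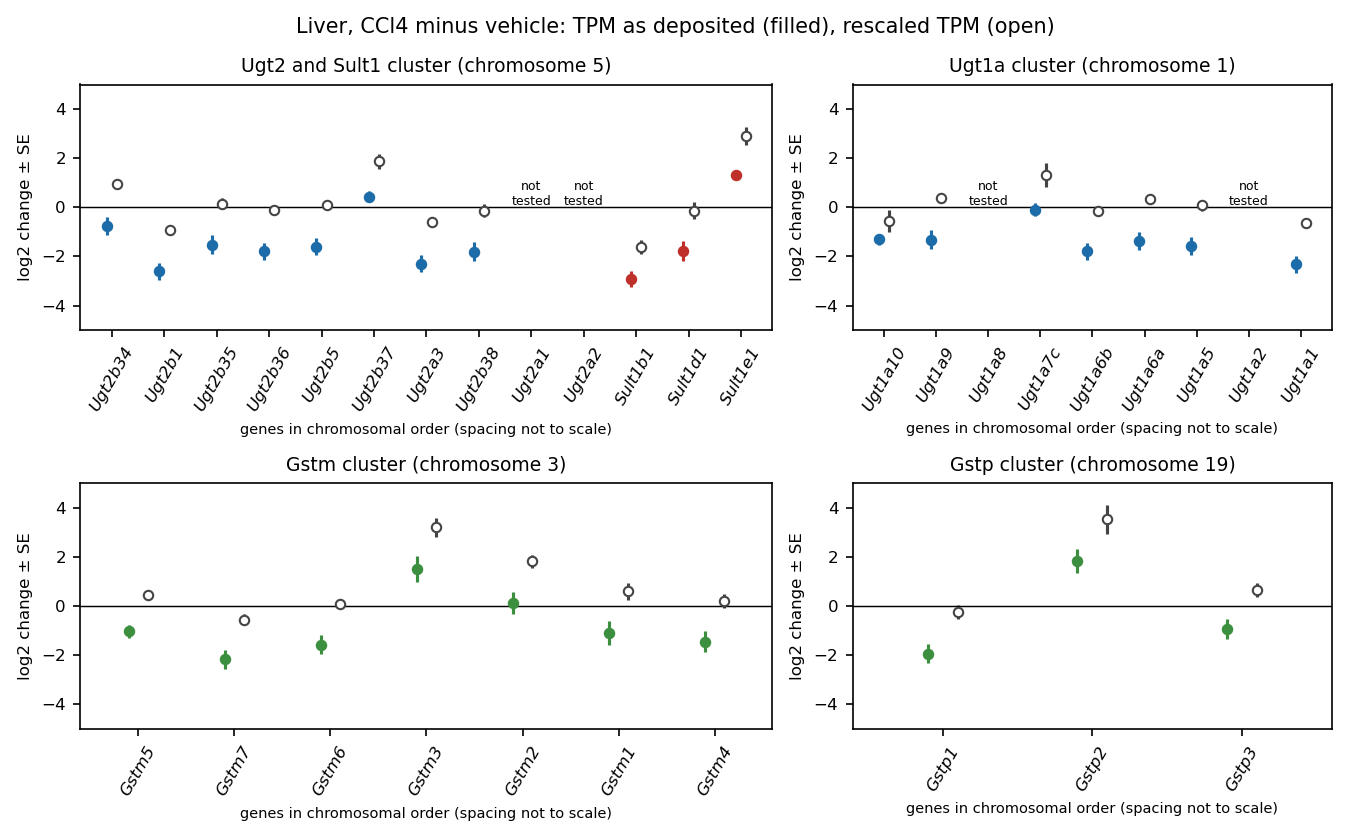
Change in log2(TPM + 1), CCl4 minus vehicle, with limma's SE (y axis), for members in their order along 4 gene clusters (x axis, spacing not to scale), with TPM as deposited filled (blue glucuronosyltransferases, red sulfotransferases, green glutathione transferases) and rescaled TPM open. Gstm3 and Gstp2 stand above their neighbours, and Sult1e1 stands at the opposite end of the plot from Sult1b1 although Sult1d1 alone lies between them.

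The promoters of the Gstp pair are shown because the genes moved differently while their starts are alike. They are the 250 bases before the annotated start, 5′ to 3′ on the gene's strand, from RefSeq (GRCm38.p6), at chr19:4037913-4038162 (minus strand) for Gstp1 and chr19:4042222-4042471 (minus strand) for Gstp2, with TGANTCA, the AP-1 element, in capitals.
Gstp1: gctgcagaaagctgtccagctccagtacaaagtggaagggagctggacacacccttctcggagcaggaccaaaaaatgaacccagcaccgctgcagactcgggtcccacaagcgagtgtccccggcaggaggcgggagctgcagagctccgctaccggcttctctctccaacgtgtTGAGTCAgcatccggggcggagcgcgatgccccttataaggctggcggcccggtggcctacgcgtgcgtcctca
Gstp2: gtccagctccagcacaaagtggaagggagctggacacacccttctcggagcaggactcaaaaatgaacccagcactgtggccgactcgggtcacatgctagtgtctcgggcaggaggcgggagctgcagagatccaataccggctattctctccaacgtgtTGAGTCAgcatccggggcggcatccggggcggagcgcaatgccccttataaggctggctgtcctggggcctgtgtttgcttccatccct
The element begins 74 bases before the Gstp1 start and 89 bases before the Gstp2 start. RefSeq promoters matched 54 of the 61 members. On either strand, TGANTCA occurred in 11 of them (20.4%), beside 7.82% of all 27025 promoters of that length. GTTAAT, part of the HNF1 element, occurred in 13 (24.1%, beside 7.49%), GCGTG, the core bound by the AHR, in 10 (18.5%, beside 30.9%), and TGACNNNGC, the antioxidant response element, in 3 (5.56%, beside 11.5%). Of the 4 members higher on every scaling, only Gstp2 had any of these motifs in this window; of the 7 lower members, Ugt2b1 had TGANTCA, Ugt1a1 and Ugt2a3 had GTTAAT and Sult1b1 had GCGTG. A match describes letters only, and the motifs were chosen with the results known.

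The genes that feed and serve these enzymes were counted from lists. Of all genes, 51.1% were called lower and 10.3% higher as deposited, and 3.57% lower and 67.8% higher on rescaled TPM, and each count is read against these shares. For UDP-glucuronate supply, 3 of 5 tested genes were called lower and none higher as deposited, and 4 of 5 were called higher on rescaled TPM, both near the share of all genes. For PAPS supply, 3 of 6 were called lower as deposited and 3 of 6 higher on rescaled TPM. Papss2, the PAPS synthase of liver, had 10.3, 6.85 and 27.6 TPM in CCl4 livers, against 62.3, 47.7 and 56.2 TPM in vehicle livers (-2.04, adjusted p = 0.00187; -0.42 rescaled, adjusted p = 0.257). For glutathione supply, 7 of 11 were called lower as deposited, and on rescaled TPM 6 of 12 were called higher and 1 lower. Gclc, the catalytic subunit of the first enzyme of glutathione synthesis, had 42.0, 27.3 and 69.7 TPM in CCl4 livers, against 106, 77.4 and 94.3 TPM in vehicle livers; it was called lower as deposited (-1.07, adjusted p = 0.0235) and higher on rescaled TPM (0.61, adjusted p = 0.0458), and its change was -0.47 with median-ratio scaling and 0.15 with quantile normalization.

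Another list held glutathione transferases outside the rule and related genes, the latter being Clic1, Clic4, Gstcd and Ptges. Of that list, 3 of 6 tested were called lower and 1 higher as deposited, and on rescaled TPM 1 of 7 was lower and 5 were higher. A further list held enzymes of acetyl, methyl and amino acid conjugation, the acyl-CoA synthetases Acsm1, Acsm3 and Acsm5 among them. All 13 tested genes of that list were called lower as deposited and 5 of 13 on rescaled TPM, with none higher on either. Inmt, the indolethylamine methyltransferase, had 56.7, 30.7 and 135 TPM in CCl4 livers, against 652, 502 and 604 TPM in vehicle livers (-3.21, adjusted p = 0.000308; -1.52 rescaled), and Nat8, the cysteine conjugate acetyltransferase, had 2.11, 2.69 and 3.83 TPM in CCl4 livers, against 22.0, 22.6 and 23.2 TPM in vehicle livers (-2.63, adjusted p = 2.55e-05; -1.24 rescaled). Both tested UDP-glycosyltransferases outside the Ugt1 and Ugt2 families were called lower on all 4 scalings. All 3 tested enzymes that remove conjugates were called lower as deposited, and 2 of 3 higher on rescaled TPM. Of the conjugate transporters tested, 5 of 6 were called lower and 1 higher as deposited; on rescaled TPM 1 of 7 was lower and 3 were higher. Abcc4, an exporter of conjugates from the basolateral membrane, had 3.57, 3.96 and 5.01 TPM in CCl4 livers, against 0.37, 0.10 and 0.21 TPM in vehicle livers (2.07, adjusted p = 2.56e-05; 3.90 rescaled). As deposited, Abcc4 passed the filter on low values only through the CCl4 libraries, in which it was high. Its call, the 1 higher among the transporters, therefore supports nothing further. Of the nuclear receptors and other regulators, 9 of 13 were called lower as deposited and 5 of 13 higher on rescaled TPM, with none in the other direction on either.

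Of 9 tested genes that commonly report on these regulators, 3 were called higher and 2 lower as deposited (10.3% and 51.1% of all genes), and 8 higher on rescaled TPM (67.8% of all genes). Cyp1a1, the usual reporter of AHR activity, had 53.8, 32.0 and 43.3 TPM in CCl4 livers, against 0.67, 0.39 and 0.73 TPM in vehicle livers (4.76, adjusted p = 5.16e-07; 6.71 rescaled). As deposited, Cyp1a1 passed the filter on low values only through the CCl4 libraries, in which it was high. Its call, 1 of the 3 higher ones, therefore supports nothing further. Hmox1 and Srxn1, usual reporters of oxidative stress, were also called higher on all 4 scalings (2.65 and 2.00 as deposited). Nqo1, a further such reporter, had 4.04, 2.58 and 10.5 TPM in CCl4 livers, against 5.23, 4.72 and 5.23 TPM in vehicle livers; it was not called as deposited (-0.03) and was called higher on rescaled TPM (1.50, adjusted p = 0.00428).

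The libraries of skin CX3CR1+ cells held a narrower set of members, and 24 of the 61 were tested there (18 glutathione transferases, 3 sulfotransferases and 3 glucuronosyltransferases). The highest were Gstp1 and Sult2b1 in both groups. Gstp1 had 180, 421 and 2755 TPM in CCl4 skin, against 237, 247 and 747 TPM in vehicle skin. Sult2b1, the cholesterol sulfotransferase of the epidermis, had 945, 66.2 and 133 TPM in CCl4 skin, against 644, 97.4 and 24.9 TPM in vehicle skin. Both groups spread widely and overlapped, and in Sult2b1 the libraries numbered 1 were the highest of their groups. Neither gene was called (0.75 ± 0.96 for Gstp1 and 0.79 ± 1.26 for Sult2b1, adjusted p = 1.00 each).

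In skin no member was called in either direction, beside 0.0% of all 13767 genes; 1 member, Ugt1a7c, and 288 genes had an unadjusted p under 0.05. The median change of the 24 tested members was 0.65, against -0.05 for all genes, and 0.22 without CCl4 replicate 3. Ugt1a7c had 17.3, 7.48 and 2.87 TPM in CCl4 skin, against 25.7, 38.3 and 17.8 TPM in vehicle skin, with every CCl4 library below every vehicle library (-1.68 ± 0.75, adjusted p = 1.00). That was the only member wholly below; 3 were wholly above, beside 2.72% and 2.56% of all genes, and the counts were the same on rescaled TPM, beside 2.78% and 2.52%. Gsto1, an omega-class enzyme that reduces rather than conjugates, was 1 of the 3, with 167, 137 and 726 TPM in CCl4 skin, against 115, 121 and 59.8 TPM in vehicle skin (1.43 ± 0.73, adjusted p = 1.00). Gstm1 was another, with 196, 491 and 306 TPM in CCl4 skin, against 191, 153 and 168 TPM in vehicle skin (0.86 ± 0.54, adjusted p = 1.00). The other was Gsta2.

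The third CCl4 skin library differed from the rest. It had 447 TPM of Gsta1, with 3.46 and 1.65 TPM in CCl4 replicates 1 and 2 and 1.66, 2.68 and 24.3 TPM in vehicle skin, and it was also the highest for Gsta4, Gstp1, Gsto1, Gm3776 (424 TPM) and Nqo1 (485 TPM). Its 4 Langerhans cell markers summed to 165 TPM, with 26096 and 11114 TPM in CCl4 replicates 1 and 2 and 34289 to 43181 TPM in vehicle skin. Its 6 skin myeloid markers summed to 107 TPM, with 954 and 819 TPM in CCl4 replicates 1 and 2 and 1047 to 2978 TPM in vehicle skin. The sum of its 5 keratinocyte markers was the lowest (354 TPM, with 1850 and 1876 TPM in CCl4 replicates 1 and 2 and 828 to 1974 TPM in vehicle skin). The sum of its 4 hair follicle markers was the highest (591 TPM, with 271 and 267 TPM in CCl4 replicates 1 and 2 and 61.9 to 312 TPM in vehicle skin). Single markers could go against their sum. Epcam, of the Langerhans list, was highest in that library (113 TPM, with 15.2 to 87.7 TPM in vehicle skin). Krt79, of the hair follicle list, was lowest there (1.42 TPM, with 3.25 to 192 TPM in vehicle skin), and Krt25 was at 0 in all CCl4 skin libraries. The part of these cells in the members' values was not tested. Sult1a1, at 35.8, 53.6 and 0.57 TPM in CCl4 skin, against 29.8, 48.8 and 51.8 TPM in vehicle skin, was lowest in the same library. Without it the change of Gstp1 was -0.35 in place of 0.75 and that of Sult1a1 0.05 in place of -1.56, with no member called. The remaining named skin members, Ugt1a1, Ugt1a6a and Sult5a1, had overlapping groups. Ugt1a1 had 43.4, 7.44 and 1.10 TPM in CCl4 skin, against 51.8, 10.8 and 2.53 TPM in vehicle skin (-0.50 ± 1.26, adjusted p = 1.00). Ugt1a6a had 5.04, 11.1 and 2.40 TPM in CCl4 skin, against 4.58, 9.68 and 0.00 TPM in vehicle skin. Sult5a1 had 4.03, 33.7 and 0.80 TPM in CCl4 skin, against 4.52, 9.82 and 5.72 TPM in vehicle skin.

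**Figure D5:**
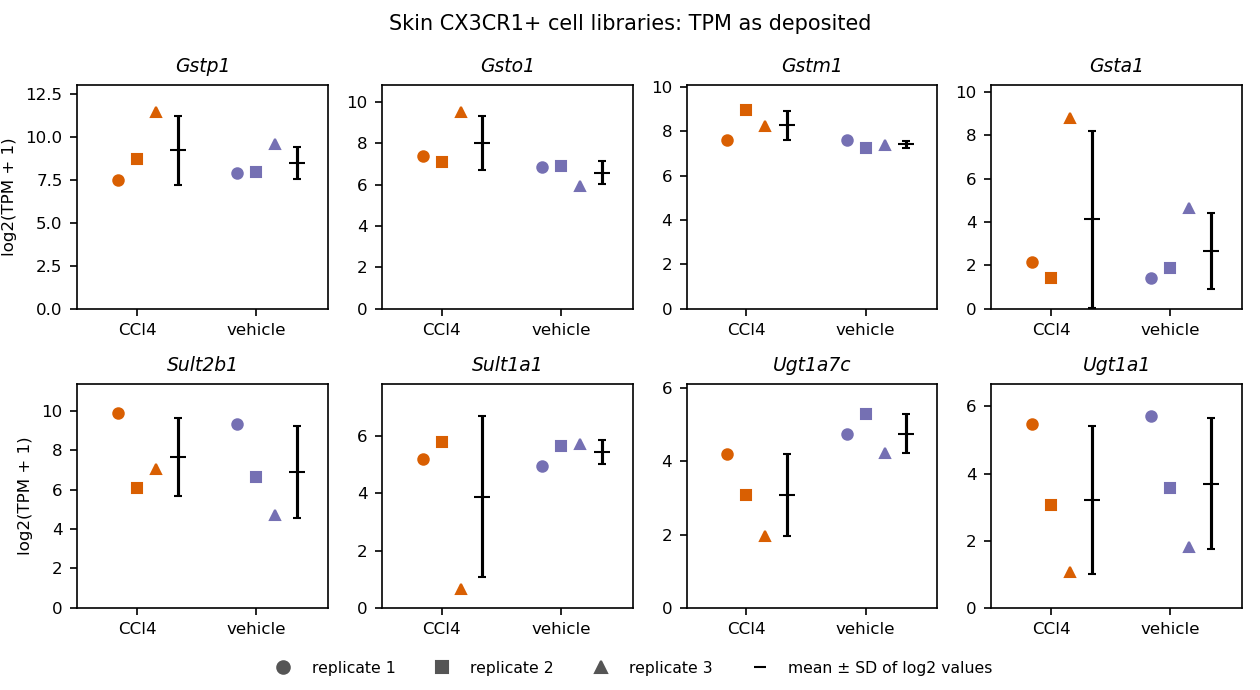
Level in log2(TPM + 1), as deposited (y axis), of 8 members in each skin library, CCl4 left and vehicle right in each panel; symbols mark the replicate number and bars the mean and SD of the log2 values. The third CCl4 library (triangle) is the highest of all for Gsta1, Gstp1 and Gsto1 and the lowest for Sult1a1, and the groups overlap in every panel except Gsto1, Gstm1 and Ugt1a7c.

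The liver change and the skin change of a member were compared in 1 model over all 12 libraries, for the 22 members that passed the filter in both tissues. No member was called, beside 0.0648% of 9255 genes called lower in liver than in skin and 0.151% called higher, all on TPM as deposited. The members with an unadjusted p under 0.05 depended on the scaling. There were 9 as deposited, beside 20.2% of genes, all of them glutathione transferases with a lower change in liver. On rescaled TPM there were 2, Gstp2 and Ugt1a7c, both with a higher change in liver, beside 27.6% of genes. With median-ratio scaling there were 5, of which 4 were lower in liver, beside 17.1%, and with quantile normalization 3, of which 1 was lower, beside 19%. Gsta3 changed by -2.22 in liver and 1.28 in skin as deposited, a difference of -3.50 ± 0.95 (adjusted p = 0.0967), the largest among members there. Its difference was -1.79 on rescaled TPM, -2.96 with median-ratio scaling and -1.63 with quantile normalization. Strain, cell preparation and library method also differ between the tissues and cannot be told apart from the tissue.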

How the data were processed

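Poly(A) RNA of liver (bulk RNA-seq) and smart-seq cDNA of skin CX3CR1+ cells were sequenced, and the labels give 1 library protocol for all 12 libraries. The authors deposited 1 table of TPM for 57180 genes, mapped to GRCm39; fastp, HISAT2, StringTie and RSEM are named in the submitters' processing notes, without versions or roles. TPM holds no depth, so no counting interval can be given and the number of libraries limits the precision. An entry of 0 can be a failed estimate.

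Symbols were found for 51884 gene IDs, and 5296 had none. Using limma 3.58.1 under R 4.3.3 (lmFit, then eBayes with trend), log2(TPM + 1) was fitted separately for each tissue; a gene entered with 1 TPM or more in any 3 of its 6 libraries. Every adjusted p is limma's, Benjamini-Hochberg adjusted over all genes tested. Rescaled TPM left out 37 mitochondrially encoded genes and 12 nuclear genes matching them at 90% identity or more over at least 80% of their length (BLAST 2.17.0). No pair of libraries was identical. The fit was tested on simulated data that gave both groups a spread based on the vehicle libraries. CCl4 livers could spread more (SD of Gstm1 862 TPM in CCl4 livers and 115 TPM in vehicle livers). That test therefore says nothing of false calls under unequal spread.

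The members, gene lists and marker lists were chosen with earlier results of these data known. Genes named with values are, per tissue, the 5 highest members in liver (3 in skin) of each family by mean TPM, and in liver the 3 largest called falls and rises of each family and the members called on all 4 scalings; others, and all genes outside the families, were chosen after their values were seen. Alternatives were pseudocounts of 0.1 and 5, no filter, a filter at a TPM of 5, 3 scalings, robust eBayes, a replicate block, 1 fit over 12 libraries and leaving out each library; leave-one-out, block and pseudocounts on rescaled TPM, and the tissue comparison without both skin libraries numbered 1, were added after the data were seen.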

Additional observations from a re-analysis of the deposited data

How the results depend on the processing

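The count of liver members called lower was 31 as reported, 28 to 34 with the pseudocounts, the filters, robust eBayes and the replicate block, 25 with median-ratio scaling, 15 with quantile normalization, 15 with 1 fit over all 12 libraries and 8 on rescaled TPM. The count called higher was 4 as reported, 8 on rescaled TPM and 1 with 1 fit over all 12 libraries, where Gsta1 (adjusted p = 0.25), Gstm3 (0.0715) and Gstp2 (0.106) lost their calls; without a filter Gstm3 (0.128) and Gstp2 (0.071) did. Leaving out each library gave 28 to 36 lower and 3 to 4 higher as deposited. On rescaled TPM it gave 5 to 11 lower, with 5 without CCl4 replicate 1, vehicle replicate 1 or vehicle replicate 3, and 7 to 11 higher. Gsta1, Gstm3, Gstp2, Sult1b1, Sult2a8, Ugt1a1, Ugt2a3 and Ugt2b1 were called in all 6 such fits on both scales; Sult1e1 was tested and called in 3.

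Replicate numbers were not taken as pairing the libraries, since not every same-numbered pair correlated above 0.1: deviations of same-numbered libraries from their group means correlated at -0.0381, 0.0796 and 0.0683 in liver and 0.587, 0.0923 and 0.350 in skin. In skin the pairs numbered 1 and 3 had the highest correlations of all 9, a hint of a link there, but CCl4 replicate 2 correlated best with vehicle replicate 3 (0.158). Replicate numbers here are those of the sample titles, and some libraries carry another number in their names. By name, skin CCl4 replicate 3 and skin vehicle replicate 2 share a number, and they correlated at -0.185. With the replicate block, which used the title numbers, 34 members were called lower and 4 higher in liver, none in skin and none in the tissue comparison. Of the tested liver members, 15 of 42 turned from lower to higher on rescaled TPM, 4 of 42 with quantile normalization and 1 of 41 with median-ratio scaling. Among the genes chosen by rule, directions turned for Gstm1 (0.61 rescaled, 0.55 quantile), Ugt2b34 (0.94 rescaled, 0.60 quantile) and Ugt2b5 (0.094 rescaled) in liver, and for Sult5a1 in skin (0.14 with a pseudocount of 5, 0.064 quantile). Leaving out 1 skin library gave -0.35 to 1.61 for Gstp1, -2.51 to 0.051 for Sult1a1, -0.31 to 2.02 for Sult2b1, -1.29 to 0.84 for Sult5a1, -1.63 to 0.57 for Ugt1a1 and -0.30 to 1.41 for Ugt1a6a. The comparison of tissues called 0 members as reported, 2 with the filter in at least 1 tissue (Sult2a8 and Ugt2b1), and 0 to 3 when 1 library was left out: Gsta2 and Gstm1 without liver CCl4 replicate 3, and Gsta3, Gsto1 and Gstt1 without skin CCl4 replicate 1. The causes were not tested. Sult2a8 and Ugt2b1 did not pass the filter in skin, where they had at most 1.33 and 0.19 TPM. They had little room to change in skin, so their calls repeat the liver change and do not show a difference between tissues. Skin members called stayed at 0 in all alternatives run.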
